A study of Drosophila melanogaster x Drosophila simulans with 3 samples.

Results

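In the heads of hybrid flies, 91 stretches of neighbouring exonic regions were read mostly from the D. simulans allele. Each stretch, called a run here, holds 3 or more regions with consecutive numbers in the deposited tables. A region entered a run when its allele-assigned reads averaged at least 50 per library and its log2 ratio of D. melanogaster to D. simulans reads was -0.5 or less, on reads pooled over the libraries with a pseudocount of 0.5. The runs held 346 of the 60040 regions, and 25277 regions had enough reads to enter one. The measured allele ratio thus chose the runs, so their ratios are described without a test.

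The study read messenger RNA of female F1 hybrids in 3 libraries, replicates 1 to 3. Mothers were D. melanogaster of the Berlin strain and fathers were D. simulans of the C167.4 strain, so allele effects of species and of parent of origin cannot be told apart. Each library was made from a separate pool of 200 flies, 100 from each of 2 bottles, reared at 25 °C, collected as virgins and frozen at 1 to 1.5 days of age. Poly-A RNA of the heads was sequenced as paired ends of 54 bases, with 1 lane per replicate, so lane and replicate are the same division. All flies carried the same pair of genomes, and no parental flies and no genomic DNA were analysed here. How evenly reads of either species find their place was therefore not measured. Heads hold brain, eyes, fat body and muscle, and a bulk ratio averages over them. The tables name no genes, so the tissue label could not be set against markers.

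In a hybrid, both alleles of a gene sit in the same nucleus and meet the same regulatory proteins. A lasting difference in their transcript levels is usually assigned to sequence linked to each allele, such as its own promoter, enhancers, splice signals or RNA stability elements. Exons of 1 transcript share a promoter, so a difference in transcription reaches all of them, whereas a difference in splicing or in transcript ends can reach some exons only. Placement of short reads works exon by exon, because it depends on where the sequences of the species differ.

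Counted over all regions of the tables, the libraries held 26406916, 26601075 and 29004108 reads. The tables do not state if mates of a pair were counted once or singly, and if singly, the counting error is larger than these numbers give. The regions of the runs held 486936 allele-assigned reads, or 0.857% of all assigned reads, at 0.863%, 0.829% and 0.876% in replicates 1, 2 and 3. Reads of the D. melanogaster allele made up 31.2%, 31.1% and 30.8% of the assigned reads in the runs. Their mean share was 31.0% ± 0.221 (SD, n = 3), beside 53.9% ± 0.416 (SD, n = 3) of all assigned reads. The runs stood at nearly the same level in the 3 libraries, although exact matches made up 31.0% of all reads in replicate 2 and 63.7% and 57.3% in replicates 1 and 3.

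Most runs were short and leaned to D. simulans by less than 2-fold. There were 56 runs of 3 regions, 19 of 4, 5 of 5, 3 of 6, 7 of 7 and 1 of 10. The total length of a run had a median of 1623 bases and ranged from 400 to 5410. Over the runs, the pooled log2 ratio had a median of -0.93, with quartiles of -1.28 and -0.75 and a range of -3.43 to -0.55. A ratio of -1 or less, which is 2-fold or more toward D. simulans, was found in 38 runs, and one of -2 or less in 12.

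The libraries were also read one by one. Their pooled reads had chosen the runs, so the lean they share is a description. The median run stood at -0.90, -0.95 and -0.93 in replicates 1, 2 and 3. In all 91 runs the ratio was below 0 in each library, and in 82 it was at or below -0.5 in each. The SD between libraries had a median of 0.12 over the runs, and the range over libraries was under 0.5 in 82 runs. In 1 run of 4 regions and 2505 reads, singled out here after its values were seen, the libraries parted, with log2 ratios of -0.40, -1.58 and -2.14 in replicates 1, 2 and 3. In that run the D. melanogaster reads numbered 511, 201 and 95 and the D. simulans reads 675, 602 and 421, so the libraries differed more in the first.

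**Figure D1:**
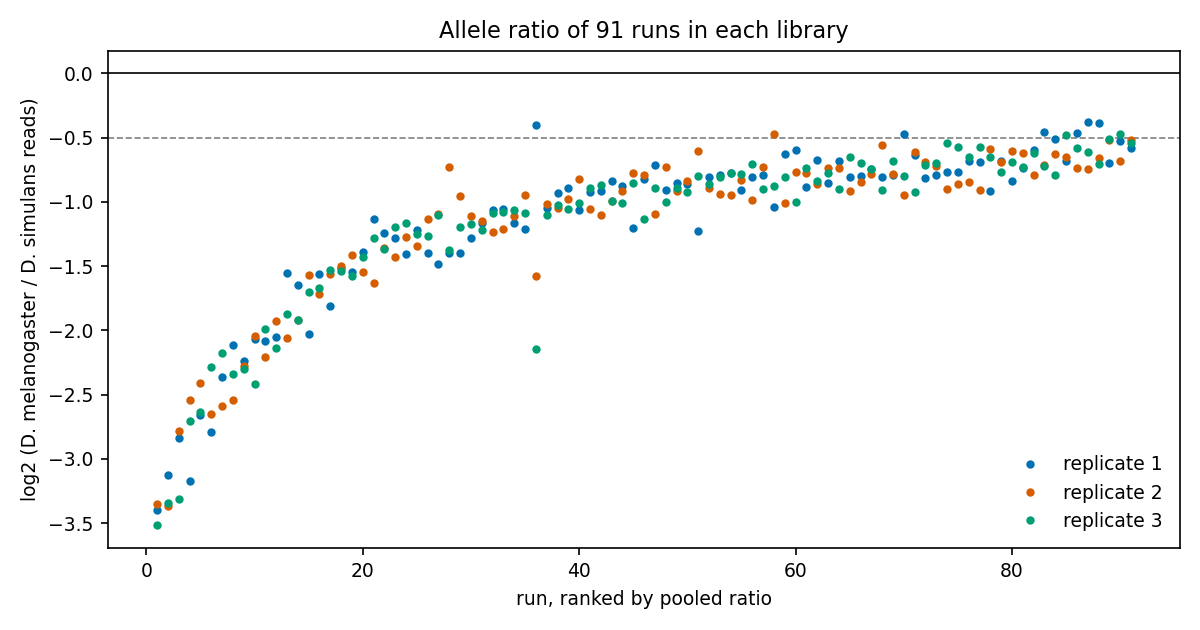
Log2 ratio of D. melanogaster to D. simulans reads (vertical axis) in each of the 91 runs, ranked by pooled ratio (horizontal axis), with 1 point per library. The dashed line is the limit of -0.5 that chose the regions. Every point lies below 0, and in 1 run the 3 libraries are spread from -0.40 to -2.14.

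Runs chosen without a library were then read in that library. Over replicates 1, 2 and 3 as the library left out, the other 2 libraries gave 96, 89 and 92 runs. In the library left out, 96 of 96, 88 of 89 and 92 of 92 of these runs were below 0. Of their 365, 341 and 359 regions, 349, 331 and 355 had at least 50 assigned reads in the library that had not been used. Of the latter, 83.7%, 84.9% and 85.4% kept a log2 ratio of -0.5 or less in it, a mean of 84.6% ± 0.871 (SD, n = 3). Of all regions with such reads, 11.2%, 11.5% and 10.5% were that low. Regions past the limit that stood outside runs kept it less often in each library, in 59.9%, 62.5% and 57.6% of cases, 60.0% ± 2.46 (SD, n = 3). The ranges of regions in runs and outside them did not overlap. The smallest p that a two-sided exact sign test can give over 3 libraries is 0.25, so none was run. The regions in runs also had more reads and lower ratios than those outside, as given below, and the part of these differences in the result was not tested.

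Single regions of the runs were lower and higher than the runs as wholes. Their pooled log2 ratio had a median of -0.98, with quartiles of -1.49 and -0.72 and a lowest value of -6.50. Regions past the limit outside runs had a median of -0.71, and all regions with enough reads one of 0.08. A ratio of -1 or less was found in 168 of the 346 regions, -2 or less in 48 and -3 or less in 20. The ratio was below 0 in all 3 libraries in 342 regions and at or below -0.5 in each in 263 (76.0%), beside 861 (48.2%) of the 1788 regions past the limit outside runs. The members nearest to the limit stood at -0.501, -0.502 and -0.504, and the nearest regions just outside it that adjoined a run stood at -0.494, -0.490 and -0.484.

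Across the whole table, edgeR's quasi-likelihood test, with p-values adjusted by Benjamini-Hochberg, called 12.2% of the 33303 tested regions toward D. simulans. It called 342 of the 346 regions of the runs, and nothing is read from that count, since the runs were chosen on the same ratio. The 4 regions not called had adjusted p-values of 0.13, 0.065, 0.054 and 0.095 in that test.

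Reads can be split by how they were placed. Some matched both genomes and were assigned to the species they matched better. Others were placed on one genome only, and these rest on whether the other reference could be matched at all. Both kinds of read leaned to D. simulans in the runs.

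The reads placed on both genomes gave a log2 ratio of -0.5 or less in all 91 runs, and a ratio below 0 in each library in all 91. Their median over the runs was -0.90. Reads placed on one genome had a median of -0.96, with all 91 runs below 0, 87 at or below -0.5 and 90 below 0 in each library. The difference between the kinds, both-genome minus one-genome ratio, had a median of 0.01 and was within 0.25 in 61 runs and within 0.5 in 84. The runs therefore leaned by similar amounts in either kind of read. These reads are parts of the sums that chose the runs, so this is a description.

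The same held region by region. Of the 346 regions, 328 had a mean of at least 20 reads placed on both genomes per library, and 326 of these were below 0 in such reads. They were at or below -0.5 in 310 (94.5%), beside 80.8% of the regions past the limit outside runs and 9.62% of all regions. The 2 members at or above 0 stood at 0.04 and 0.09. The remaining 18 members had too few such reads, and 3 of them had none. A difference of 2-fold or more between the kinds of read was found in 13 of 266 members with enough reads of each kind (4.89%), in 8.38% of all such regions and in 16.0% of the regions of the mirrored runs. Mirrored runs are those that meet the same rule toward D. melanogaster, with a log2 ratio of 0.5 or more.

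Few runs rested on one kind of read. In 4 runs the reads placed on both genomes were less extreme by 0.5 or more, and in 3 they were more extreme by as much. The largest gap was in a run of 3 regions and 630 reads, where 583 reads placed on one genome gave -3.31 and the 47 placed on both gave -0.80. Of its reads 7.46% were placed on both genomes, and its regions had a median identity of 86.22% between the species, the lowest median of any run. In the reads placed on both genomes, 1 of its 3 regions was below 0 and 1 had no such reads. The region above 0 had few, with 1, 8 and 3 D. melanogaster against 3, 3 and 3 D. simulans reads in replicates 1, 2 and 3. That run was also among the 5 with the lowest ratios, at -2.84, -2.78 and -3.31 in replicates 1, 2 and 3, and its rank rests on the reads placed on one genome.

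**Figure D2:**
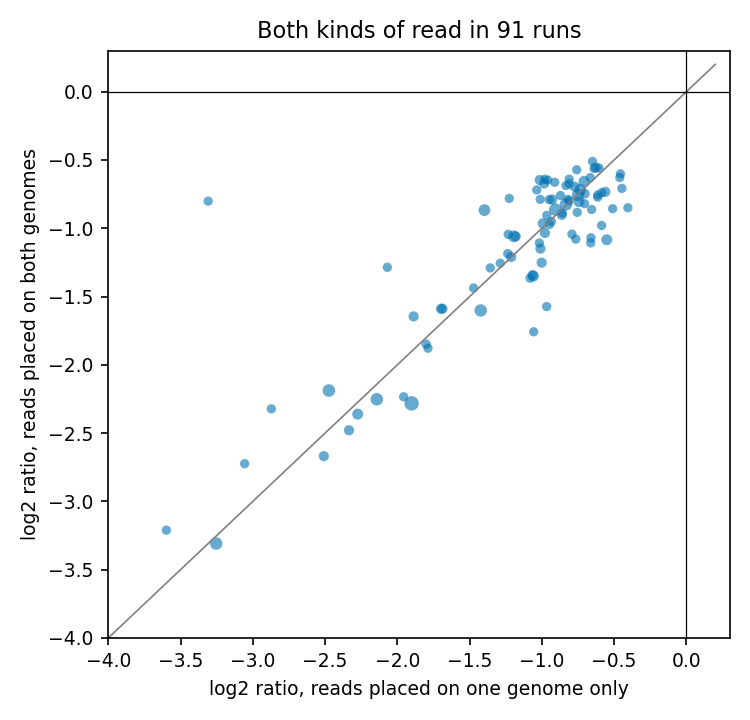
Log2 allele ratio of each of the 91 runs in reads placed on one genome (horizontal axis) and in reads placed on both (vertical axis), with point size growing with the number of regions and a line of equal values. All runs lie below 0 on both axes. The point far above the line is the run at -3.31 and -0.80.

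Adjoining regions of a run mostly stood close together, but a few runs held a step of several log2 units. The difference between 2 adjoining regions was not used to choose runs, so it was tested, over all 15457 adjoining pairs of the table, as an interaction of region and allele in edgeR's quasi-likelihood test, with p-values adjusted by Benjamini-Hochberg over all pairs. Of all pairs, 28.5% differed. Within runs, 54 of 255 pairs (21.2%) differed, and within mirrored runs 122 of 456 (26.8%). Pairs of a run share regions, and the rule holds all its ratios on one side of the limit, so the shares are set side by side without a test. The absolute difference had a median of 0.25 within runs and 0.30 over all pairs. At least 1 pair differed in 34 runs and none did in 57. The ratio came nearer to 0 with the higher number in 27 of the differing pairs and moved away from it in 27. The number of differing pairs in runs was 35 without the replicate block and 28 by DESeq2's Wald test. The share of all pairs that differed is not given under these settings, so the counts cannot be set against 28.5%.

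The spread among regions and that among libraries were taken on unlike values. The SD of the pooled ratio over the regions of a run had a median of 0.23. The SD of a region's single-library ratios over the libraries had a median of 0.22. The first was larger in 48 of the 91 runs. Pooled ratios carry less counting error than single-library ones, so similar SDs do not show that regions differ only as much as libraries. As for read levels, the region with the highest reads per kilobase in a run had a median of 1.87 times the lowest. The range of the pooled allele ratio over the regions of a run had a median of 0.45 log2 units.

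The longest run, of 10 regions and 14978 reads over 4055 bases, had 2 levels. Its log2 ratio over all regions was -2.06, -1.92 and -2.13 in replicates 1, 2 and 3. The first 4 regions stood at -5.47, -5.44, -4.94 and -4.34, and the other 6 at -1.05, -1.08, -1.12, -1.87, -0.87 and -0.61.

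Region 4 of that run had 23, 18 and 19 D. melanogaster reads against 396, 323 and 508 D. simulans reads in replicates 1, 2 and 3. Region 5 had 118, 87 and 112 against 191, 202 and 265. D. simulans reads fell between them and D. melanogaster reads rose, in every library. The step was 3.29 ± 0.22 (SE) on the log2 scale, with an adjusted p of 5.3e-23 in edgeR's quasi-likelihood test. In reads placed on both genomes alone, regions 4 and 5 stood at -4.10 and -1.33.

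A run of 7 regions and 14469 reads held a step near its other end. Its log2 ratio was -2.24, -2.27 and -2.30 in replicates 1, 2 and 3. The first 5 regions lay between -1.71 and -0.99, and the last 2 at -4.94 and -5.32.

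Region 5 of that run, of 1523 bases, had 426, 396 and 434 D. melanogaster reads against 805, 727 and 958 D. simulans reads. Region 6, of 1092 bases, had 30, 23 and 34 against 809, 828 and 1054. D. simulans reads were at a similar number in both regions, and D. melanogaster reads dropped. The step of -3.96 ± 0.15 (SE) had an adjusted p of 2.2e-38 in edgeR's quasi-likelihood test, and reads placed on both genomes gave -1.06 and -4.87.

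Of the 7 runs of 7 regions, the 4 with the most reads are described here with the 10-region run, and the other 3 had fewer reads. Apart from the run with 14469 reads, these 4 held no step of 1 log2 unit or more. Among the other 3, a run with 5639 reads, described with the lowest ratios, and a run with 5327 reads held such steps, the latter of -1.45 ± 0.31 and 1.49 ± 0.24 (SE, adjusted p = 9.2e-05 and 2.3e-07 in edgeR's quasi-likelihood test). In the last, with 8781 reads, regions lay between -1.03 and -0.64.

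The run of 7 regions with 28643 reads, the most of any run, had 2574, 2469 and 2380 D. melanogaster reads against 7525, 6592 and 7103 D. simulans reads. Its log2 ratio was -1.55, -1.42 and -1.58, or 25.9% ± 1.15 D. melanogaster reads (SD, n = 3). Its regions ranged from -1.97 to -1.14. The libraries lay close together and every region was 2-fold or more toward D. simulans. Of its 6 adjoining pairs, 3 differed, the largest by 0.83 ± 0.19 (SE, adjusted p = 0.00037 in edgeR's quasi-likelihood test).

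The run of 7 regions and 23760 reads stood at -0.86, -0.84 and -0.93 in replicates 1, 2 and 3. Its regions ranged from -1.62 to -0.75, and 1 of its 6 pairs differed. Read levels per kilobase in it spanned 6.02-fold from the lowest to the highest region.

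The smallest range of regions among the 7-region runs was in one with 9148 reads, at -0.74, -0.78 and -0.74 in replicates 1, 2 and 3. Its regions lay between -0.94 and -0.59, reads placed on both genomes gave -0.76 and those on one -0.75. None of its 6 pairs differed in edgeR's quasi-likelihood test, with adjusted p-values from 0.17 upward, which does not show that their ratios are equal.

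**Figure D3:**
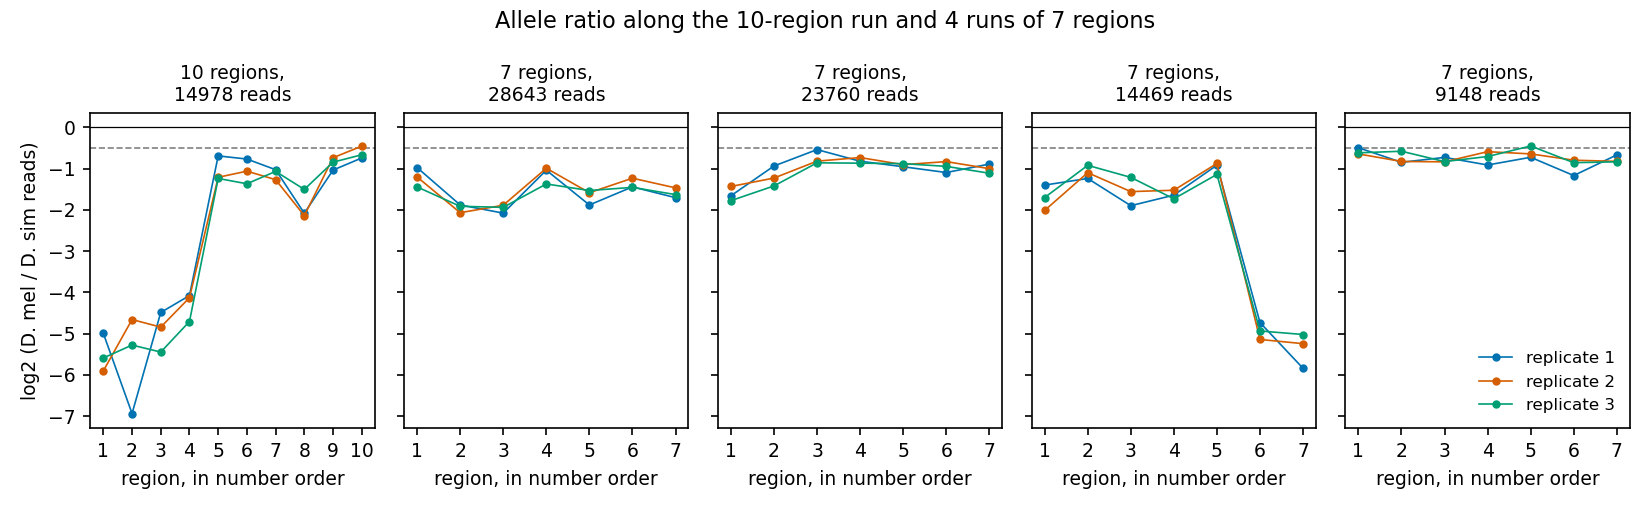
Log2 allele ratio (vertical axis) of each region in number order (horizontal axis) along the 10-region run and the 4 runs of 7 regions with the most reads, with 1 line per library, the limit of -0.5 dashed and 0 as a solid line. In the 10-region run the ratio steps from -4.34 to -1.05 between regions 4 and 5, and in the run with 14469 reads it steps from -0.99 to -4.94. The other 3 runs drawn stay between -1.97 and -0.59 in the pooled ratio.

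The lowest ratios were in short or stepped runs. The lowest run, of 3 regions and 4444 reads, had 124, 122 and 131 D. melanogaster reads against 1312, 1251 and 1504 D. simulans reads. Its log2 ratio was -3.40, -3.35 and -3.52. Its average mixes unlike regions, since the first stood at -0.69 and the next at -6.50 and -6.24.

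The first region of that run had 102, 116 and 117 D. melanogaster reads against 180, 166 and 194 D. simulans reads. The second is S34759_SI, the member with the lowest ratio, with 337 bases in either species at 90.8% identity. It had 9, 4 and 5 D. melanogaster reads against 505, 537 and 634, or 1.09% ± 0.572 D. melanogaster reads (SD, n = 3). Reads placed on both genomes numbered 1, 0 and 0 for D. melanogaster and 197, 302 and 255 for D. simulans, and those placed on one genome gave -5.72. The lean of S34759_SI was thus present in each kind of read. The step to it of -5.82 ± 0.25 (SE), with an adjusted p of 3.5e-34 in edgeR's quasi-likelihood test, was the largest within any run.

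A run of 7 regions and 5639 reads stood at -3.12, -3.37 and -3.34 in replicates 1, 2 and 3. Its regions read -3.12, -2.07, -1.15, -2.27, -3.88, -5.83 and -5.58 in number order. Its region 7 had 2, 0 and 5 D. melanogaster reads against 108, 125 and 126. No other member lacked D. melanogaster reads in a library. The difference between its regions 4 and 5 was -1.61 ± 0.33 (SE, adjusted p = 5.5e-05) and that between its regions 5 and 6 -1.96 ± 0.30 (SE, adjusted p = 1.3e-07), both in edgeR's quasi-likelihood test.

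A run of 3 regions and 1185 reads had 42, 50 and 55 D. melanogaster reads against 383, 294 and 361, which gave -3.17, -2.54 and -2.70. Its 3 regions stood at -2.79, -2.70 and -2.85, and neither pair differed in edgeR's quasi-likelihood test (adjusted p = 0.93 and 0.88). That does not show that their ratios are equal. Another run of 3 regions, with 4121 reads, stood at -2.66, -2.41 and -2.64, and both of its pairs differed (adjusted p = 8.0e-05 and 0.00024 in edgeR's quasi-likelihood test).

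Among the runs with the most reads, the one with 24256 reads lay on 447 bases only. It had 3069, 2273 and 2532 D. melanogaster reads against 6335, 4611 and 5436 D. simulans reads, at -1.05, -1.02 and -1.10. Its last region is S40772_SI, the member with the most assigned reads, 14552. S40772_SI is 238 bases long in D. melanogaster and 236 in D. simulans, with 93.64% identity. It had 2095, 1486 and 1694 D. melanogaster reads against 3582, 2574 and 3121, a share of 36.2% ± 0.919 (SD, n = 3). The region before it stood at -1.55, and S40772_SI at -0.81, a difference of 0.73 ± 0.08 (SE, adjusted p = 2.6e-13 in edgeR's quasi-likelihood test). Most of that difference was in reads placed on one genome. In reads placed on both genomes the neighbour stood at -0.90 and S40772_SI at -0.69, and in those on one genome at -1.88 and -0.89.

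In 2 more of the runs with the most reads, regions stood within 0.25 log2 units of each other. One of 3 regions with 22765 reads had log2 ratios of -1.24, -1.36 and -1.37, and its regions stood at -1.36, -1.41 and -1.18, with the last pair differing by 0.23 ± 0.08 (SE, adjusted p = 0.017 in edgeR's quasi-likelihood test). Another of 3 regions with 15029 reads stood at -1.64, -1.92 and -1.92, with regions at -1.94, -1.73 and -1.85 that did not pass the test of a difference (adjusted p = 0.096 and 0.35 in edgeR's quasi-likelihood test). In the first of these, the 125-base region had almost no reads on both genomes. They numbered 0, 1 and 1 for D. melanogaster and 0, 0 and 1 for D. simulans in replicates 1, 2 and 3. Its ratio of 0.74 in them rests on these counts alone.

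Regions past the limit lay beside each other more often than their share of the table. They made up 8.44% of the regions with enough reads, or 2134 in number, and 16.2% of them were in runs. Where the next region had enough reads, it was past the limit too in 478 of 1276 cases (37.5%). It was past the opposite limit of 0.5 in 98 cases (7.68%), beside 17.5% of all regions. On the mirrored side, 919 of 2648 next regions (34.7%) were past the same limit, and there were 177 mirrored runs with 633 regions, the longest of 9. More runs thus leaned to D. melanogaster, but the longest leaned to D. simulans.

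The share of regions past the limit was raised at distances of 2 and 3 regions beyond a run's end, as it was for mirrored runs. Of the 182 ends, 85 met a region with too few reads and 97 one with a ratio above the limit. The latter regions had a median log2 ratio of -0.09, and 57 of them (58.8%) were below 0, beside 40.8% of all regions with enough reads. Further out, where the rule sets no bound, 31.6% of regions at a distance of 2 were past the limit, 16.1% at 3, 12.4% at 4 and 9.09% at 5, beside 8.44% of the whole table. At distances 6 to 10 the share lay between 9.09% and 13.1%, with no steady decline, and the median at distance 6 was -0.10. Of the 43 regions beyond an end that missed the read minimum but held at least 30 reads over the libraries, 18 were at or below -0.5. Between neighbouring runs, 5 gaps held at most 5 regions. Beyond mirrored runs, 32.0% and 30.9% of regions at distances 2 and 3 were past their limit of 0.5, beside 17.5% of the whole table.

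**Figure D4:**
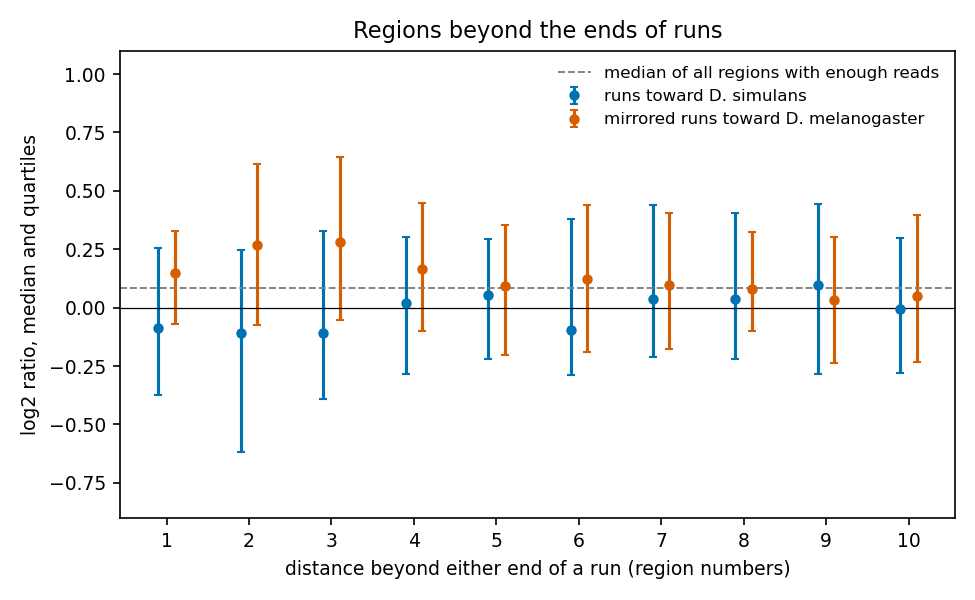
Log2 allele ratio of regions with enough reads (vertical axis, median with quartiles as bars) by distance in region numbers beyond either end of a run (horizontal axis), for runs toward D. simulans and for mirrored runs. The nearest regions cannot be past the limit, since the run would then include them. Beyond the runs toward D. simulans the medians at distances 1, 2 and 3 are -0.09, -0.11 and -0.11, against 0.08 for all regions.

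The regions of the runs were short, well covered and rarely of unequal length between the species. Their median length was 322 bases in D. melanogaster, beside 420 for regions past the limit outside runs, 375 for mirrored runs and 502 for all regions with enough reads. Reads per kilobase, unassigned reads included and summed over the libraries, had medians of 2601, 1339, 2025 and 1495 in the same order. The lengths in the species differed in 50 of the 346 members (14.5%), beside 29.9%, 24.2% and 31.6%. Median identity was 96.06%, 96.23%, 95.85% and 96.65%. These features were compared by their values only, and the part of region length in them was not tested.

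The authors' coverage columns, whose origin is not stated, leaned to D. simulans over most of the table. The lean was larger in regions past the limit, in runs and outside them. The log2 ratio of the coverage values, each plus 1, was below 0 in 97.1% of members and in 88.4% of all regions with enough reads, with medians of -1.40 and -0.68. It was below 0 in 95.9% of regions past the limit outside runs and in 50.1% of regions of mirrored runs, with medians of -1.11 and -0.003. Whether these columns are independent of the reads that chose the runs is not known.

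The deposited tables give neither genes nor positions, but the order of region lengths could be set against joined exons of the BDGP6 annotation. Of all series of 3 consecutive regions, 32.9% had their 3 lengths in that order among neighbouring exon blocks of BDGP6, and 0.864% had them in reversed order. A region was called placed when such a series was found once. By this match 183 of the 346 members were placed, and the whole series of lengths was found for 25 of the 91 runs, each at 1 place. In reversed order 2 runs' series were found. No gene is named from this match, since it rests on lengths and the authors' annotation is not given in the sources used here.

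Most of the runs that could be placed lay within 1 gene by this match, as did most placed series of the whole table. Of all series of 3 regions found once, 87.8% lay in 1 gene. Of runs whose whole series was found once, 23 of 25 did, beside 29 of 32 mirrored runs. Runs with fewer than 2 regions placed could not be judged, and some others were placed only in part. Of 55 runs with at least 2 regions placed, 51 fell in 1 gene and 4 in more than 1. Those 4 were the 10-region run, the run of 7 with 5639 reads, the lowest run and 1 other. All 7 regions of the run with 28643 reads were placed in 1 gene. In the 10-region run, the first 3 regions were placed in 1 gene and regions 5 to 7 in another, on either side of the step. Region 4 was not placed, so the step between regions 4 and 5 could not be set at a gene boundary. In the lowest run, the first region and S34759_SI were placed in different genes. In the run of 7 with 5639 reads, regions 2 to 4 were placed in 1 gene and the last 3 in another. Its difference between regions 4 and 5 thus lay between genes, and that between regions 5 and 6 within 1 gene. The difference between its regions 3 and 4, of -1.12 ± 0.33 (SE, adjusted p = 0.0062 in edgeR's quasi-likelihood test), also lay within 1 gene. The last 3 regions of the run with 14469 reads were not placed, and its step could not be set against a gene boundary.

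Pairs within runs that were placed in 1 gene differed in 22 of 122 cases (18.0%), beside 1362 of 6048 such pairs (22.5%) in the whole table. All 3 pairs placed in different genes differed, beside 54 of 124 (43.5%). Of the 7 placed pairs that differed 2-fold or more, 2 lay in different genes and 5 in 1 gene.

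By the same match, 8 of the runs lay on chromosome 4, the small dot chromosome that is largely heterochromatic. It held 28 of the 183 placed members (15.3%) and 2.26% of the placed regions with enough reads. The X chromosome held 6.01% of placed members and 14.0% of placed regions. For 2L, 2R, 3L and 3R, the shares of members were 12.6%, 17.5%, 15.8% and 32.8%, and those of regions were 17.6%, 21.1%, 18.8% and 26.2%. Of the regions placed on chromosome 4, 17.3% were past the limit, beside 6.31% to 8.62% on the other arms. Of the placed regions of mirrored runs, 1.89% were on chromosome 4.

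The lean on chromosome 4 was not limited to the runs. The median of its 272 placed regions with enough reads was -0.09, -0.10 and -0.11 in replicates 1, 2 and 3, or -0.097 ± 0.0086 (SD, n = 3), whereas the medians of the other arms ranged from 0.05 to 0.10 in single libraries. Each library had chromosome 4 as the lowest arm and as the only one below 0. Reads placed on both genomes gave -0.09 there, and the 244 regions outside runs gave -0.06. Median identity was 97.01%, beside 96.77% to 96.91% on the other arms. Arms were compared by their values, without a test, and neighbouring regions of a gene are not independent.

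The 8 runs on chromosome 4 include the 7-region run with 9148 reads and the 3-region run with 4121 reads. Apart from the latter, at -2.57, they lay in a narrow band, with pooled log2 ratios from -0.85 to -0.64, and D. melanogaster shares from 35.6% ± 0.652 to 39.0% ± 2.32 (SD, n = 3). In reads placed on both genomes they ranged from -0.85 to -0.57.

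**Figure D5:**
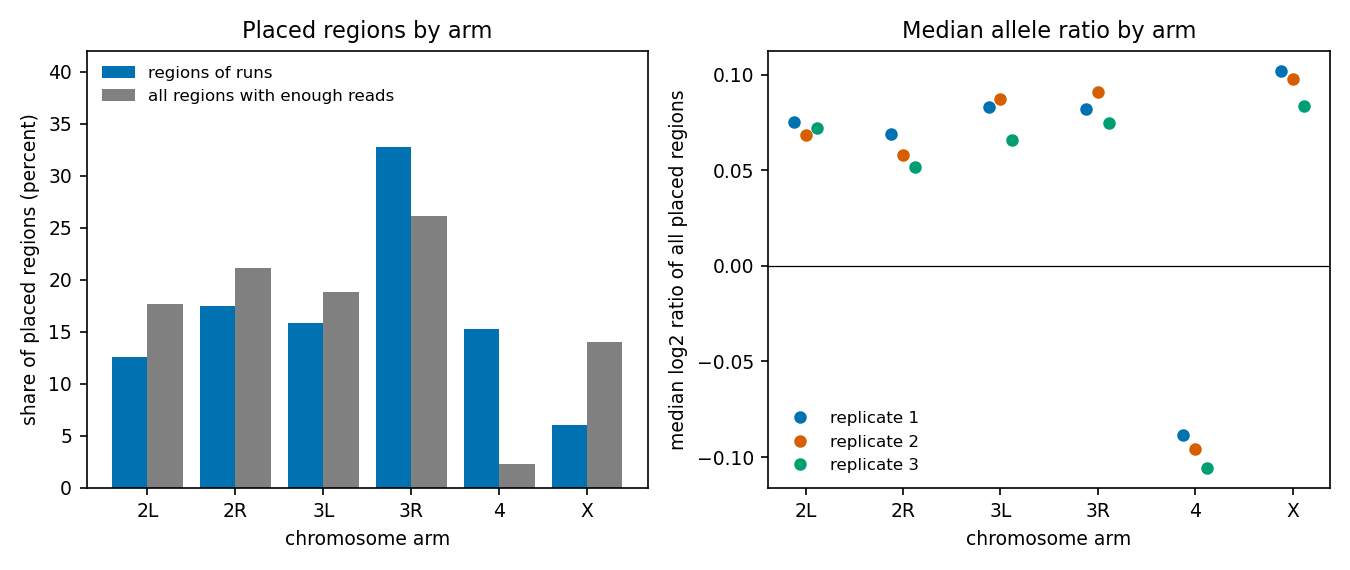
Left, share of placed regions on each chromosome arm (vertical axis, percent) for regions of the runs and for all regions with enough reads. Right, median log2 allele ratio of all placed regions with enough reads on each arm, with 1 point per library. Chromosome 4 holds 15.3% of the members and 2.26% of the regions, and it is the only arm with medians below 0.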

How the data were processed

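The authors deposited 1 table of read counts per library, with a row per exonic region and 10 read classes, per the file headers. There are 4 classes for each allele and 2 for reads that match both species equally. Per the submitters' processing notes, Bowtie was used. The sources used here do not give its version, the build or the annotation, or any filters. The deposited tables also hold, per the file headers, percent identity and the percent of positions altered in each reference, region lengths, and a coverage signal per genotype whose origin is not stated.

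The 4 classes of each allele were summed, unscaled, so a log2 ratio of 0 means equal reads. The members and the lists described were chosen with earlier results of these data known. Runs described in full were the 5 longest (ties by more assigned reads), the 5 with the most reads and the 5 with the lowest pooled ratio, 13 in all. Identifiers are printed for the member with the most reads and for the one with the lowest ratio among those with 4 or more reads of each allele in each library. Tests used edgeR 4.0.16 in R 4.3.3, on regions with a mean of at least 20 assigned reads (50 for pairs), with replicate as a block, since both alleles of a library come from 1 RNA pool. For pairs the block was region by replicate. Calls were made at a Benjamini-Hochberg adjusted p under 0.05. Standard errors were taken from the fitted log2 value and its F statistic. DESeq2 1.42.0 was an alternative. The fits were tested on simulated data. The match of lengths to BDGP6 and the comparison of arms were added after the data were seen. Tables were handled with pandas 2.3.3 in Python 3.11.15.

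The replicates were not duplicates, as chi-square per degree of freedom between libraries was 14.8 to 37.9. Depth was 26406916 to 29004108 reads per library, counted over the regions of the tables only. As an example of precision, the 10-region run's D. melanogaster share in replicate 1 of 19.4% had a 95% exact binomial interval of 18.3% to 20.5%. Such intervals cover counting error only, as reads carried no molecular identifiers, and take each count as independent, though a count may be a read or a read pair.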

Additional observations from a re-analysis of the deposited data

Results flagged for a closer look

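Reads that matched both species equally entered no allele ratio and no test, only the read levels per kilobase. The regions of the runs held 85049 of them, 14.9% of their 571985 reads, and which allele these came from cannot be told. Per member region their share had a median of 9.33%, beside 17.0% over all regions with enough reads. It was highest in a run of 4 regions, at 41.6%, whose log2 allele ratio was -0.71.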

How the results depend on the processing

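Most settings that moved a count changed the rule that chooses the runs. Of 76 values of the counts and shares under alternatives, 39 stayed within 1.5 times or within the spread and 37 moved. Without replicate 1, 2 or 3 in turn, there were 89 to 96 runs, 341 to 365 regions, 325 to 351 regions called, 41 to 42 differing pairs and 320 to 341 regions below 0 in reads placed on both genomes. The values below give, in order, runs, regions, regions called, regions below 0 in reads placed on both genomes and the percent keeping the limit in the library left out. A minimum of 20 reads gave 158, 592, 538, 510 and 79.8%, and one of 100 gave 52, 198, 198, 191 and 87.7%. A limit of -0.25 gave 263, 1033, 830, 982 and 79.6%, with 140 differing pairs, and one of -1 gave 28, 111, 111, 99 and 91.0%, with 21 pairs. Runs of 4 or more regions gave 35, 178, 177, 167 and 88.4%, with 32 pairs. Centring ratios on the median region, which shifts it by 0.08, gave 114 runs, 455 regions and 82.4%. Chosen on reads placed on one genome alone there were 42 runs with 150 regions, on exact matches 52 with 201, and with the limit met in each library 53 with 205. Chosen on reads placed on both genomes there were 78 runs with 275 regions, and 197 of these regions were members of the runs described above. Of the regions chosen on reads placed on one genome 110 were such members, and of those chosen on exact matches 169. With the limit met in each library, all 205 were.

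Without the replicate block, edgeR called 326 of the 346 regions and 35 of the 255 pairs, and DESeq2's Wald test called 288 and 28. Same-numbered alleles come from 1 RNA pool. The cause of these changes was not tested. The share of the whole table called is not given for these fits or for those without a replicate. For the 13 runs described in full, 81 of 104 ratios moved by less than the SD between libraries and none changed sign. Leaving out 1 library could hardly move a pooled ratio by that SD, and neither this nor a pseudocount of 1 moved any run. Reads placed on both genomes moved 7 of the 13 runs, reads placed on one genome 7, centring 5 and exact matches 4. The largest move was in the run with 630 reads, from -2.99 to -0.80 in reads placed on both genomes. Depth limits the regions near 50 reads, and 18 members had too few reads on both genomes to be compared.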
